A study of Mus musculus with 8 samples.

Results

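Oxidative phosphorylation is the route by which mitochondria make ATP, and its nuclear-encoded genes were followed here through a differentiation experiment with and without a knockdown of the promyelocytic leukaemia protein (PML). Genes were taken by symbol: those starting with Nduf followed by a, b, c, s or v, the 4 Sdh genes, and those starting with Uqcr, with Cox and a digit from 4 to 8, or with Atp5, leaving out symbols that end in -ps. This gave 89 of the 19938 genes tested, of which 34 belong to complex I, 4 to complex II, 8 to complex III, 19 to complex IV and 17 to complex V, while 7 are Ndufaf assembly factors of complex I. Of the 89 genes 80 encode subunits. The others are the 7 assembly factors and 2 relatives of complex IV subunits, Cox7a2l, which links complexes III and IV in supercomplexes, and Ndufa4l2, a paralogue of Ndufa4 that is induced by hypoxia. Ndufa4 was counted with complex IV, where the protein is now placed.

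Complex I (NADH dehydrogenase) and complex II (succinate dehydrogenase) pass electrons to ubiquinone, complex III passes them on to cytochrome c, and complex IV hands them to oxygen. Complexes I, III and IV pump protons as they do so, and complex V, the ATP synthase, lets the protons back and makes ATP. Complexes I, III, IV and V are built from subunits of 2 genomes, since a small set of hydrophobic core subunits is encoded in mitochondrial DNA and the rest in the nucleus, whereas complex II is encoded in the nucleus alone. Naive embryonic stem cells (ESCs) are known to respire as well as use glycolysis, and early differentiation is accompanied by a shift between these routes.

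RNA came from the mouse ESC line CGR8 (donor strain 129P2/OlaHsd, background strain C57BL/6 in the labels), which grows without feeder cells. The PML knockdown (KD) cells stably express a hairpin against Pml from a pLKO.1 lentiviral vector and were selected with puromycin. The control is labelled WT; the sources used here do not state whether it carries the empty vector or whether the KD line is a clone or a pool. ESCs grown with the self-renewal cytokine LIF make up day 0 of each genotype, and embryoid bodies (EBs), the aggregates that form and differentiate once LIF is withdrawn, make up day 4, with 2 arrays in each of the 4 groups (Affymetrix MoGene 1.0 ST, 8 arrays). Since separate cultures are not recorded for the 2 arrays of a group, a p-value covers only the variation from array to array, which may be technical. In bulk RNA of this kind, fewer cells of a type and less RNA per cell cannot be told apart.

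Values are log2 signals after quantile normalization, and a gene was called higher or lower, or said to have risen or fallen, when limma's adjusted p over all 19938 genes was under 0.05. Pml itself stood at 11.59 and 11.58 in WT and 11.17 and 11.08 in KD at day 0, a difference of -0.46 ± 0.08 (SE, n = 2 arrays a group, limma adjusted p = 0.00192), and at 10.96 and 10.91 in WT and 10.52 and 10.67 in KD at day 4 (-0.34 ± 0.08, limma adjusted p = 0.0145). The arrays of WT and KD did not overlap on either day. Such separation is common with 2 arrays a group. Over all 19938 genes KD lay above WT without overlap for 5704 and below it for 8365 at day 0. At day 4 these were 7374 and 5156. The 2 KD arrays at day 0 stood apart from the other 6 in more than Pml. The Y-linked genes Eif2s3y and Uty read 5.08 and 4.85, and 5.28 and 5.66, in these arrays, against 9.86 to 10.27 and 9.02 to 9.39 in the others. Genes on chromosome 8 had a median KD minus WT difference 0.27 above that of other chromosomes at day 0 and 0.00 above it at day 4, and for chromosome 14 the day 0 value was 0.18. No member lies on chromosome 14 and 3 lie on chromosome 8, Ndufa13, Cox4i1 and Ndufb7. The KD EB arrays read 9.98 and 9.86 for Eif2s3y and 9.14 and 9.02 for Uty, so the KD arrays of the 2 days differ here too. How far these features bear on the day 0 results, the changes over time in KD and the differences of the changes was not tested. The hairpin and the line that carries it cannot be told apart.

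Many nuclear respiratory genes carry sites for nuclear respiratory factor 1 (NRF1) and for ETS factors such as GABP in their promoters. The 250 bases before the annotated start were searched on both strands for the NRF1 motif (GCGCA, any base, then GCGC) and the ETS motif CCGGAAG in the 73 members with a RefSeq promoter entry (GRCm38.p6). The NRF1 letters were present in 13 of the 73 members (17.8%) and in 1000 of 15563 tested genes (6.4%), and the ETS letters in 13 of 73 (17.8%) and 1669 of 15563 (10.7%). NRF1 matches were found in 4 of 15 complex V, 5 of 31 complex I, 2 of 3 complex II, 1 of 13 complex IV and 0 of 5 complex III promoters. These counts describe letters in a window, not bound sites. The promoters of 4 members whose values recur below are shown, since they set side by side the complex I, III and V genes with the largest falls in KD ESCs and a complex IV gene that was higher there after quantile normalization. Each is the 150 bases that end just before the start, on the gene's own strand, with matches in capitals (CTTCCGG is the ETS motif on the other strand).
Ndufs5, chr4:123718187-123718336 (minus strand): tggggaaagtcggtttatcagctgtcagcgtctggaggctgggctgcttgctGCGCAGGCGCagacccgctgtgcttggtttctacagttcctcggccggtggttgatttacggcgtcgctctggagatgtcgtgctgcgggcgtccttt
Uqcrfs1, chr13:30545317-30545466 (minus strand): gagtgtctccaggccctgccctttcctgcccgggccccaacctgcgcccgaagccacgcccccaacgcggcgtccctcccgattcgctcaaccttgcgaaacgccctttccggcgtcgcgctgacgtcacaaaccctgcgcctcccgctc
Atp5h, chr11:115419920-115420069 (minus strand): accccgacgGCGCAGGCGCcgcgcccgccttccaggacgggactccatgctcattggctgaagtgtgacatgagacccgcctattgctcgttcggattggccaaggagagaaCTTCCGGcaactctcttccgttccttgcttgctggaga
Cox6a1, chr5:115348959-115349108 (minus strand): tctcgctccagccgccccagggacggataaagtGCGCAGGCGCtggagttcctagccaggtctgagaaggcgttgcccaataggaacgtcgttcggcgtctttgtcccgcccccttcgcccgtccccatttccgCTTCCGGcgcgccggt
Atp5h and Cox6a1 both held 1 match to each motif within the printed bases, Ndufs5 held 1 NRF1 match and Uqcrfs1 held neither. Atp5h was lower and Cox6a1 higher in KD ESCs, the latter not after a median shift of the arrays. The NRF1 letters were in 8 of 46 members that were lower in KD at day 0 (17.4%) and in 5 of the 27 others (18.5%), and the ETS letters in 10 of 46 (21.7%) and 3 of 27 (11.1%).

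Across the 4 groups the genes were highest in WT ESCs. Of the 89 genes 51 had their highest group mean there, against 12 in WT EBs, 13 in KD ESCs and 13 in KD EBs, and the lowest group mean fell in KD ESCs for 40 and in WT EBs for 37. Expressed as the median over the 89 genes of the signal minus each gene's own mean, the WT ESC arrays stood at 0.209 and 0.181, the KD ESC arrays at -0.147 and -0.142, the WT EB arrays at -0.148 and -0.125 and the KD EB arrays at 0.101 and 0.036. The WT ESC arrays were thus above all others, the KD EB arrays next, and the KD ESC and WT EB arrays overlapped at the bottom. Over all 19938 genes the same medians lay between -0.056 and 0.032. In complexes I and V the WT ESC arrays were likewise highest and the KD EB arrays next, and the KD ESC arrays read -0.139 and -0.159 in complex I and -0.286 and -0.288 in complex V. Complex III had its lowest arrays in KD ESCs (-0.331 and -0.365) while its WT EB arrays (0.038 and 0.012) were near the mean. Complex IV spanned the narrowest range, from -0.130 in a WT EB array to 0.095 in a KD EB array.

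**Figure D1:**
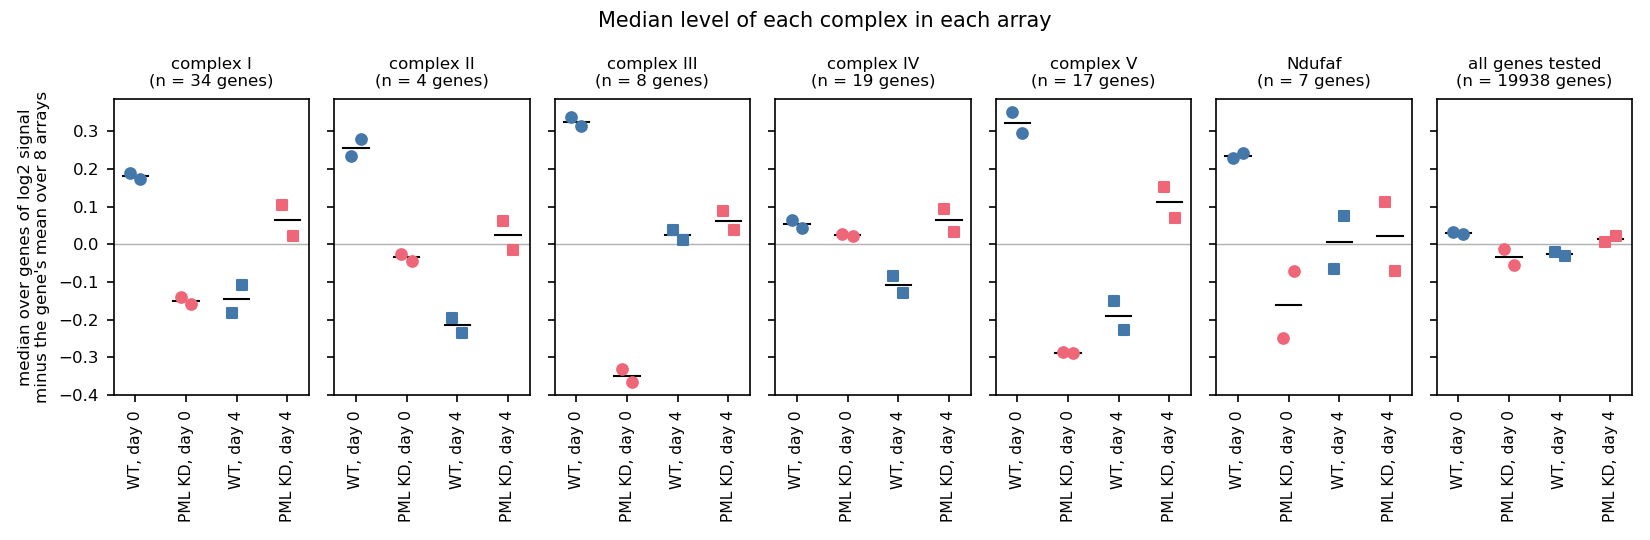
Median, over the genes of each complex, of the log2 signal minus the gene's mean over the 8 arrays (vertical axis), by group (horizontal axis); each point is an array (circles day 0, squares day 4, blue WT, red PML KD) and the bar is the mean of the 2 arrays. Complex V runs from 0.350 in a WT ESC array to -0.288 in a KD ESC array, while all genes tested stay between -0.056 and 0.032, a range that quantile normalization itself keeps narrow.

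In ESCs, PML KD was accompanied by lower signals for most of these genes. At day 0, 55 of the 89 genes were lower in KD, 8 were higher and 26 did not pass, with a median difference of -0.30. Over all genes tested 27.0% were lower and 16.9% higher, with a median of -0.06. Members are bright (66 of 89 lie above the 75th percentile of mean signal), and among all genes in that top 25% 40.0% were lower and 31.8% higher. By complex, 23 of 34 genes were lower and 2 higher in complex I, 1 of 4 was lower in complex II, all 8 were lower in complex III, 4 of 19 were lower and 5 higher in complex IV, and 14 of 17 were lower and 1 higher in complex V. Medians were -0.27, -0.16, -0.56, 0.00 and -0.55 in that order. The scaling moved these values. On the values as deposited the medians of complexes I to V were -0.438, -0.342, -0.698, -0.124 and -0.647, and after a median shift of the arrays -0.663, -0.567, -0.923, -0.349 and -0.872, while the median of all 89 genes was -0.4413 and -0.6664. The lower genes of complex II numbered 4 of 4 under both settings, and those of complex IV 8 and 10 of 19, with 6 and 2 higher. The authors' workbook of log2 values per Ensembl gene, quantile normalized alike, gave 2 of 4 lower in complex II. For complex IV it gave 1 lower and 5 higher of 19. The members outside chromosome 8 gave 54 lower and 6 higher of 86, with a median of -0.31.

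At day 4 the direction was the opposite. In EBs 40 of the 89 genes were higher in KD, 6 were lower and 43 did not pass, with a median difference of 0.21 (0.2685 as deposited and 0.3836 after a median shift). Over all genes 17.3% were higher and 10.1% lower with a median of 0.04, and in the top 25% of signal 28.4% and 19.1%. The genes higher in KD numbered 16 of 34 in complex I, 2 of 4 in complex II, 4 of 8 in complex III, 7 of 19 in complex IV and 9 of 17 in complex V. Without array 1 of the KD EBs the count of higher genes was 23 rather than 40, the lowest count when any array was left out, with a median difference of 0.18. The 6 lower genes were 2 without that array and 3 without array 2 of the KD EBs or either WT EB array. The day 0 and day 4 comparisons share no arrays: 27 genes were lower in KD at day 0 and higher at day 4, 4 were higher on both days, 4 were lower on both days, and none was higher at day 0 and lower at day 4. Another 24 were lower at day 0 and did not pass at day 4. These pairs of calls were not counted over all genes, so they do not show that members reverse more often than other genes. Between the 2 differences Pearson's r was -0.09 across the 89 genes, which are not independent replicates, and -0.12 across all genes.

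**Figure D2:**
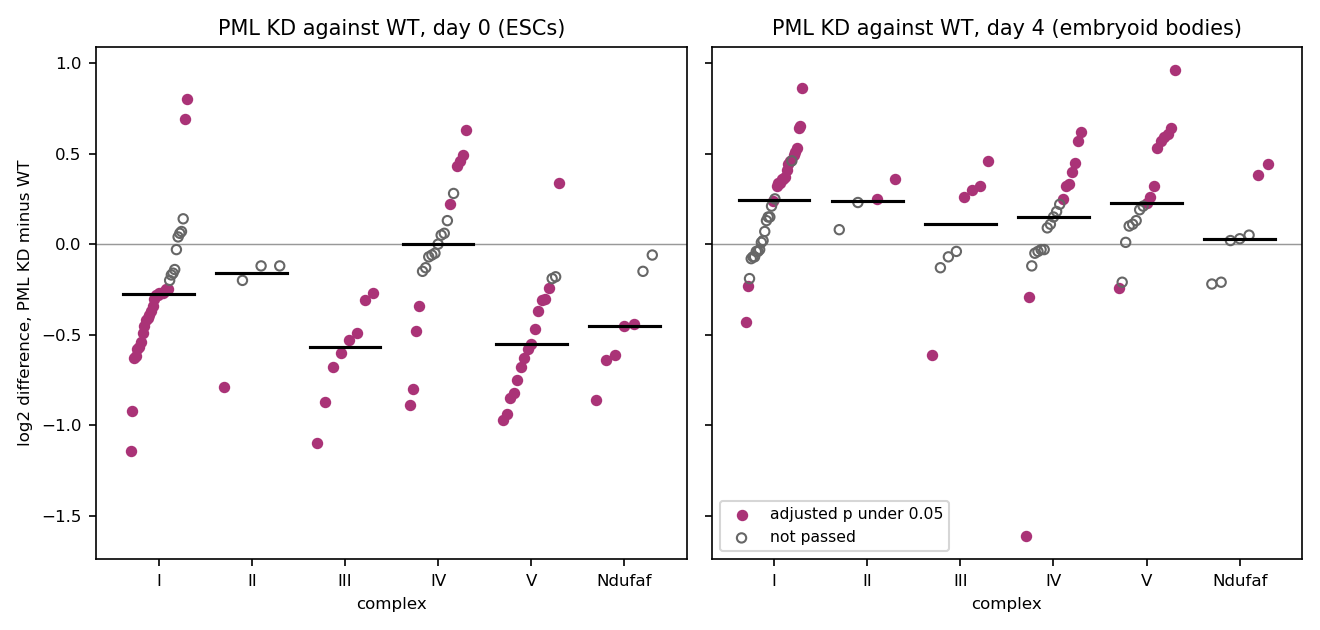
Log2 difference, PML KD minus WT (vertical axis), of each member by complex (horizontal axis) at day 0 and day 4; filled points passed an adjusted p of 0.05, open points did not, and the bar is the median of the complex. All 8 complex III genes lie between -1.10 and -0.27 at day 0, and the lowest point at day 4 is Ndufa4l2 at -1.61.

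Over time the 2 genotypes went in opposite directions. From day 0 to day 4, 52 of the 89 genes fell in WT and 10 rose (median -0.28), where 26.2% of all genes fell and 17.4% rose (top 25% of signal: 41.5% and 28.0%). After a median shift of the arrays the WT counts were 71 fallen and 1 risen, with a median of -0.6789 (-0.4699 as deposited). In the workbook they were 43 fallen and 15 risen, with a median of -0.3482. The risen genes were 4 to 6 when any WT array was left out. In KD 41 rose and 10 fell (median 0.15), where 26.9% of all genes rose and 19.4% fell (top 25% of signal: 37.8% and 33.6%). After a median shift the KD counts were 58 risen and 4 fallen, with a median of 0.3632 (0.2319 as deposited), and without array 1 of the KD EBs 25 rose. These 2 comparisons share no arrays: 24 genes fell in WT and rose in KD, 6 fell in both, 7 rose in both and 1, Ndufa13, rose in WT and fell in KD. Another 22 fell in WT and did not pass in KD. These pairs, too, were not counted over all genes. The difference of the changes (KD minus WT) was itself tested. It was positive for 52 genes and negative for 5, against 27.4% and 14.7% of all genes (top 25% of signal: 39.7% and 27.4%), with a median of 0.49 over the members and 0.09 over all genes. After a median shift these medians were 1.039 and 0.2332, and as deposited 0.6983 and -0.107. The WT ESC arrays enter the day 0 comparison and the WT change over time alike, and each of the other groups is likewise shared by 2 of these comparisons. The KD change sets day 0 arrays with low Eif2s3y and Uty against day 4 arrays without this feature. The part of that feature in the KD change and in the difference of the changes was not tested.

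**Figure D3:**
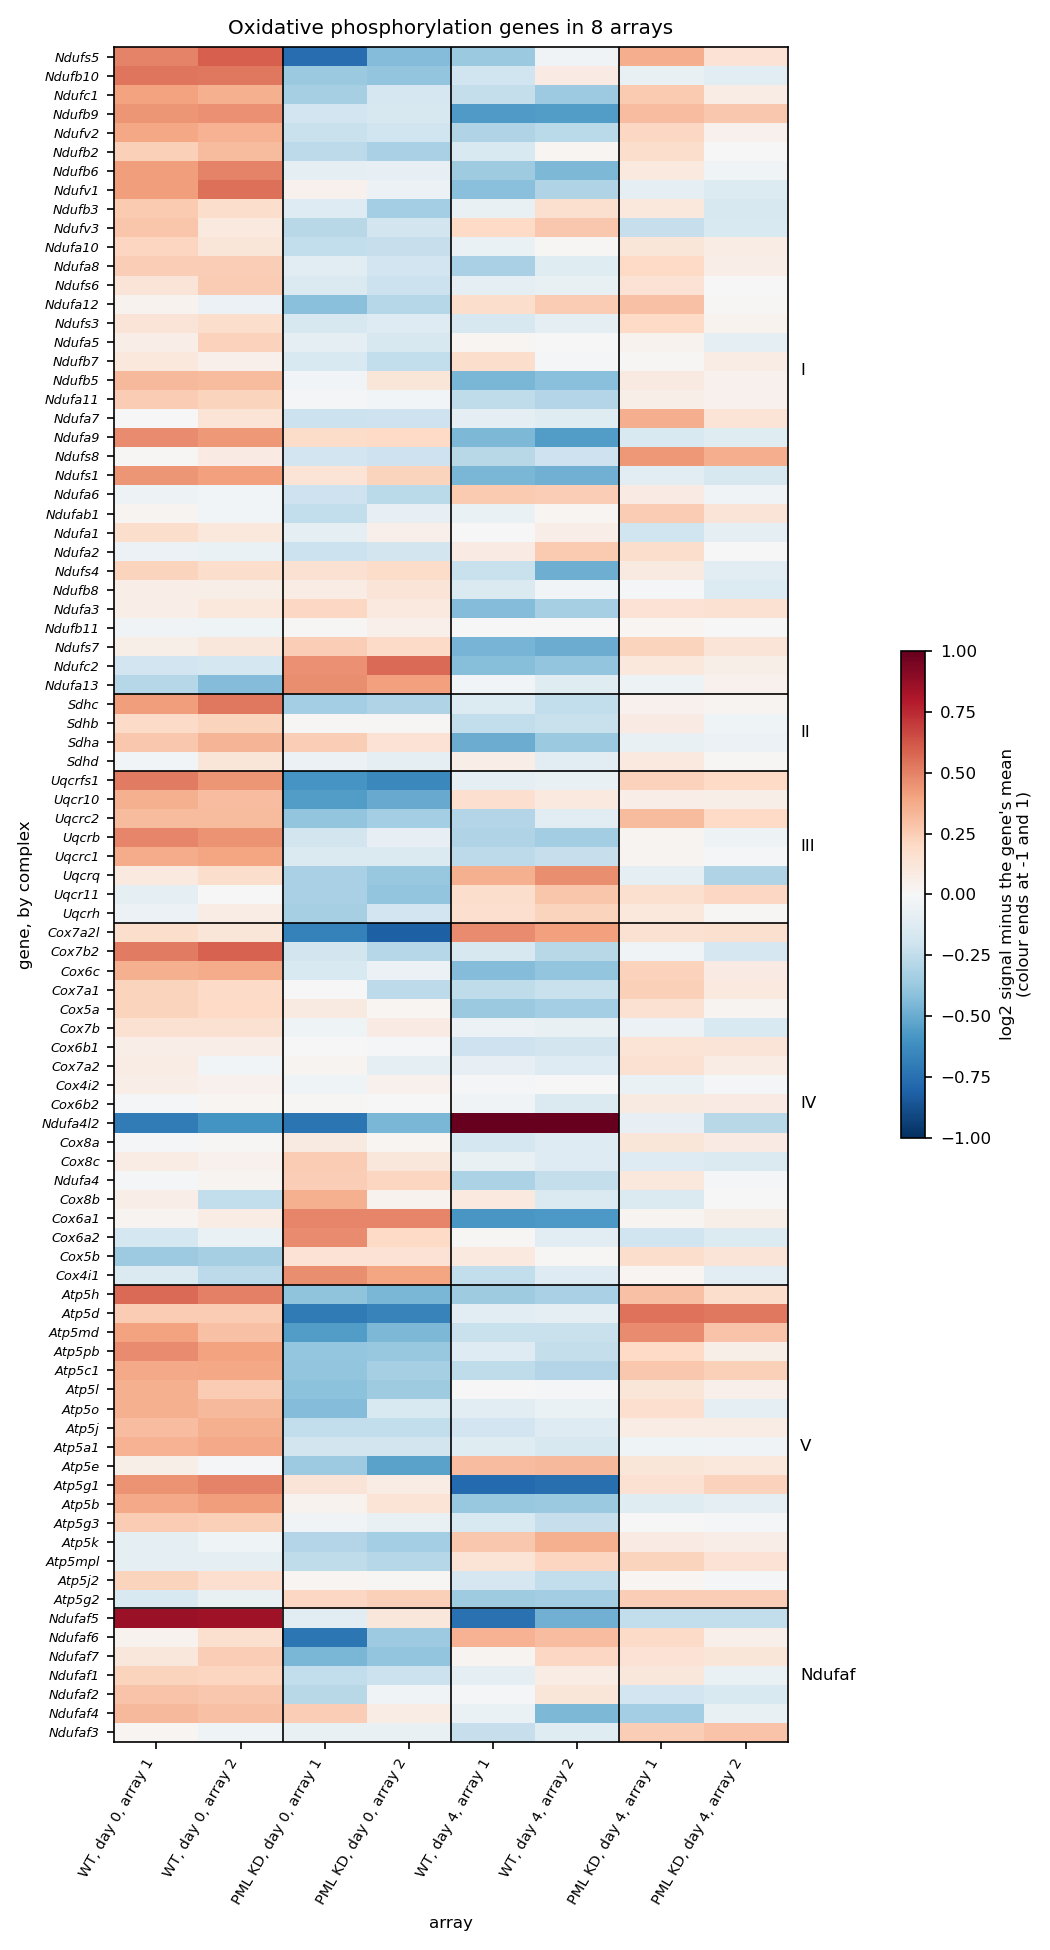
Log2 signal of each member minus its own mean over the 8 arrays (colour, ending at -1 and 1), with genes grouped by complex and ordered by the day 0 difference (rows) and arrays by group (columns). Most rows of complexes I, III and V are red in both WT ESC arrays and blue in both KD ESC arrays, while Cox4i1, Cox5b, Cox6a1 and Ndufc2 are red in KD ESCs.

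Complex I oxidises NADH through a hydrophilic arm that holds its redox centres. The core subunits of that arm measured here are Ndufv1, which binds the flavin and NADH, Ndufv2 and Ndufs1 with iron-sulfur clusters, and Ndufs3, Ndufs7 and Ndufs8 towards the ubiquinone site. Of these 6, 5 were lower in KD at day 0 (median -0.28) and 5 were higher at day 4 (median 0.38). All 6 core subunits fell in WT over time, and the difference of the changes passed for all 6, from 0.52 to 0.99. Ndufv2 read 11.06 and 11.02 in WT ESCs, 10.45 and 10.47 in KD ESCs, 10.37 and 10.40 in WT EBs and 10.88 and 10.71 in KD EBs. WT ESCs were highest with no overlap, and KD lay below WT at day 0 (-0.58 ± 0.08, limma adjusted p = 0.00059) and above it at day 4 (0.41 ± 0.08, limma adjusted p = 0.00629). Ndufv1 read 10.67 and 10.80, then 10.29 and 10.19 in KD ESCs, 9.83 and 9.95 in WT EBs and 10.16 and 10.11 in KD EBs. It was lower in KD at day 0 (-0.49 ± 0.08), and its day 4 difference of 0.25 ± 0.08 did not pass (limma adjusted p = 0.0553). Ndufs1 (10.63 and 10.60 in WT ESCs, 10.33 and 10.41 in KD ESCs, 9.73 and 9.71 in WT EBs, 10.08 and 10.03 in KD EBs) fell over time in WT by 0.90 and in KD by 0.31, the difference of the changes being 0.58 ± 0.09. Ndufs7 did not pass at day 0 (0.14 ± 0.07, limma adjusted p = 0.161), and it was higher in KD EBs by 0.65 ± 0.07, with 10.33 and 10.30 in WT against 11.02 and 10.92. Among the calls lost with an array left out were Ndufs1 at day 0 (limma adjusted p up to 0.0882, without either WT ESC array or array 1 of the KD ESCs) and day 4 (0.0509, without array 1 of the KD EBs). Ndufs3 lost its day 0 call (-0.30 ± 0.08) without array 2 of the WT ESCs or array 1 of the KD ESCs (0.0788), its day 4 call (0.24 ± 0.08) when any of 7 arrays was left out (0.245), and its fall in WT for 3 arrays (0.103). Ndufs8 lost its day 0 call (-0.25 ± 0.07) without array 2 of the WT ESCs or either KD ESC array (0.13) and its fall in WT for 2 arrays (0.0785). In the authors' workbook, quantile normalized alike, Ndufs3 was 0.0629 at day 0 and 0.0953 at day 4, neither of which passed, and Ndufs1 at day 0 did not pass (-0.286, limma adjusted p = 0.0731). There the change of Ndufs3 in WT (-0.0671, limma adjusted p = 0.577) and its difference of the changes (0.0323, limma adjusted p = 0.866) did not pass either.

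The accessory subunits of complex I surround this core and include assembly and stability factors of the membrane arm. Of 28 accessory subunits 18 were lower and 2 higher in KD at day 0, and 11 were higher and 2 lower at day 4. Ndufs5 carried the largest day 0 fall of any member: 9.07 and 9.17 in WT ESCs, 7.81 and 8.14 in KD ESCs, 8.20 and 8.54 in WT EBs and 8.94 and 8.72 in KD EBs. WT and KD did not overlap on either day, with -1.14 ± 0.15 at day 0 (limma adjusted p = 0.00054), while 0.46 ± 0.15 at day 4 did not pass (limma adjusted p = 0.0573). Ndufb10, a membrane arm subunit, was 9.21 and 9.20 in WT ESCs and 8.30 and 8.28 in KD ESCs (-0.92 ± 0.10), and at day 4 the groups overlapped, at 8.47 and 8.75 against 8.60 and 8.56. Ndufb9 read 12.78 and 12.80 in WT ESCs, 12.15 and 12.18 in KD ESCs, 11.77 and 11.78 in WT EBs and 12.65 and 12.61 in KD EBs, so that KD was lower by 0.62 ± 0.06 at day 0 and higher by 0.86 ± 0.06 at day 4, the largest complex I difference of that day. Ndufc1 was lower by 0.63 ± 0.10 at day 0 and higher by 0.46 ± 0.10 at day 4. Its day 4 call was lost without array 2 of the WT EBs or array 1 of the KD EBs (limma adjusted p up to 0.0688), and it did not pass in the workbook (0.543, 0.0625).

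A few complex I genes went the other way. Ndufa13 (GRIM-19), on chromosome 8, read 8.77 and 8.62 in WT ESCs and 9.52 and 9.46 in KD ESCs (0.80 ± 0.08, limma adjusted p = 0.00015), and 9.03 and 8.93 against 9.00 and 9.10 in EBs, where the groups overlapped. Ndufc2 was higher in KD on both days, by 0.69 ± 0.07 at day 0 (11.29 and 11.31 against 11.94 and 12.05) and 0.49 ± 0.07 at day 4 (11.06 and 11.09 against 11.59 and 11.54). Ndufv3 was lower on both days (-0.42 ± 0.09 and -0.43 ± 0.09), and its change over time was 0.05 in WT and 0.04 in KD, neither of which passed. Ndufa6 was lower in KD EBs (-0.23 ± 0.07). The third chromosome 8 member, Ndufb7, was lower in KD at day 0 (-0.28 ± 0.09), so 2 of the 3 members on that chromosome were higher and 1 lower. Leaving out any of the 8 arrays ended the call of Ndufa6 (limma adjusted p up to 0.216), any ESC array that of Ndufb7 (0.124), array 1 of the KD EBs that of Ndufv3 at day 4 (0.0593), and array 2 of the WT ESCs or array 1 of the WT EBs the rise of Ndufa13 in WT (0.15). After a median shift Ndufa6 was -0.0215 and Ndufv3 -0.255 at day 4, and in the workbook Ndufb7 was -0.046 and Ndufv3 -0.251 at day 0, none of which passed.

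Complex II couples succinate oxidation in the citric acid cycle to ubiquinone. Its flavoprotein Sdha read 11.47 and 11.54 in WT ESCs, 11.44 and 11.34 in KD ESCs, 10.70 and 10.83 in WT EBs and 11.12 and 11.14 in KD EBs. The day 0 difference did not pass (-0.12 ± 0.08), and KD EBs were higher by 0.36 ± 0.08 (limma adjusted p = 0.00975). The iron-sulfur subunit Sdhb was -0.20 ± 0.07 at day 0 (limma adjusted p = 0.0529, not passed) and 0.25 ± 0.07 at day 4 (limma adjusted p = 0.0297). Among the membrane anchors, Sdhc was 11.34 and 11.45 in WT ESCs, 10.58 and 10.62 in KD ESCs, 10.78 and 10.67 in WT EBs and 10.96 and 10.95 in KD EBs. Its day 0 fall of 0.79 ± 0.07 (limma adjusted p = 0.0001) was the largest of complex II, and the KD EB difference of 0.23 ± 0.07 did not pass (limma adjusted p = 0.0544). The other anchor, Sdhd, passed in none of the 5 comparisons, its values running from 10.47 to 10.71 over the 8 arrays. The scaling added calls: at day 0 as deposited Sdha was -0.282, Sdhb -0.382 and Sdhd -0.302 (limma adjusted p = 0.0149, 0.0034 and 0.0211), all lower, as they were after a median shift, and Sdhc at day 4 passed under both (0.309 and 0.425). Sdhd at day 4 was 0.287 (0.0483) after a median shift. The day 4 calls were lost without single arrays, for Sdha with a limma adjusted p of up to 0.056 (array 1 of the WT EBs or array 2 of the KD EBs) and for Sdhb of up to 0.159 (any of 5 arrays).

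Complex III was the complex in which every member taken by the symbol rule was lower in KD ESCs. Cyc1, the cytochrome c1 subunit of this complex, falls outside the rule. Its day 0 difference of -0.17 ± 0.08 did not pass (limma adjusted p = 0.118). Uqcrfs1, the Rieske iron-sulfur protein that takes electrons from ubiquinol, read 9.81 and 9.73 in WT ESCs, 8.70 and 8.64 in KD ESCs, 9.20 and 9.21 in WT EBs and 9.52 and 9.49 in KD EBs. The groups did not overlap on either day, with -1.10 ± 0.07 at day 0 (limma adjusted p = 1.94e-05) and 0.30 ± 0.07 at day 4 (limma adjusted p = 0.0129). The core proteins Uqcrc1 and Uqcrc2 gave -0.53 ± 0.06 and -0.68 ± 0.08 at day 0 and 0.26 ± 0.06 and 0.46 ± 0.08 at day 4. The 5 small subunits split at day 4: Uqcrb, which borders the quinone site, was 0.32 ± 0.07 higher in KD, Uqcrq was 0.61 ± 0.09 lower (10.21 and 10.32 in WT against 9.76 and 9.55), and Uqcr10, Uqcr11 and Uqcrh did not pass (-0.07, -0.04 and -0.13). Uqcr10 had shown the second largest fall of the complex at day 0, from 10.52 and 10.47 to 9.60 and 9.66 (-0.87 ± 0.07). In KD cells 5 of the 8 rose over time and none fell, and in WT 5 fell and 2, Uqcr11 and Uqcrq, rose. In the workbook 3 fell and 3 rose in WT. Uqcrc2, which fell in WT by 0.52 in the array table, rose there by 0.34 (limma adjusted p = 0.0177). With an array left out, limma adjusted p rose to 0.173 for Uqcrh (array 2 of the WT ESCs or array 1 of the KD ESCs) and 0.0625 for Uqcr11 (array 2 of the WT ESCs) at day 0, to 0.0682, 0.097 and 0.0816 for Uqcrfs1, Uqcrc1 and Uqcrb at day 4 (an EB array in each case), and to 0.101 and 0.178 for the rises of Uqcr11 and Uqcrq in WT. These 2 rises did not pass as deposited (0.138 and 0.116), nor did Uqcrc1 and Uqcrfs1 at day 4 in the workbook (0.0798 and 0.19).

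Complex IV, cytochrome c oxidase, has nuclear subunits that surround a catalytic core from mitochondrial DNA, and several of them exist as ubiquitous and tissue-specific isoforms. Of the 10 ubiquitous subunits (Ndufa4 among them) 4 were higher and 1 was lower in KD at day 0, and 6 were higher at day 4. Cox4i1, the regulatory subunit that binds ATP, lies on chromosome 8 and read 11.42 and 11.30 in WT ESCs, 12.03 and 11.96 in KD ESCs, 11.32 and 11.43 in WT EBs and 11.58 and 11.46 in KD EBs. KD ESCs were above all other arrays (0.63 ± 0.08, limma adjusted p = 0.00047), and the day 4 difference of 0.15 ± 0.08 did not pass. Cox5b, a zinc-binding subunit on chromosome 1, was 10.74 and 10.77 in WT ESCs against 11.25 and 11.25 (0.49 ± 0.07), and in EBs it was 11.20 and 11.12 against 11.28 and 11.23, which did not pass. The day 0 difference of Cox5b was 0.101 after a median shift and did not pass (limma adjusted p = 0.322). Cox6a1 was higher in KD on both days: 12.83 and 12.88 against 13.29 and 13.29 in ESCs (0.43 ± 0.06), and 12.22 and 12.23 against 12.83 and 12.86 in EBs (0.62 ± 0.06). Its day 0 call depended on the scaling, since it held as deposited but not after a median shift (0.0305, limma adjusted p = 0.754). Cox5a did not pass at day 0 (-0.15 ± 0.07) and was 0.45 ± 0.07 higher in KD EBs, where Cox6b1 and Cox8a were also higher, by 0.33 ± 0.06 and 0.25 ± 0.07. These 3 day 4 calls did not pass in the workbook (0.412, 0.22 and 0.552). Cox6c was the ubiquitous subunit that was lower in KD ESCs (-0.48 ± 0.08), on a row that lies at another locus, as given below.

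Of the 7 tissue-specific isoforms, Cox6a2, the isoform of heart and skeletal muscle, was higher in KD ESCs (8.12 and 8.23 against 8.77 and 8.50, 0.46 ± 0.10, limma adjusted p = 0.0072) and did not pass at day 4 (-0.12 ± 0.10). Cox7a1, also of heart and muscle, was lower in KD ESCs (-0.34 ± 0.10) and higher in KD EBs (0.40 ± 0.10). Cox7b2 was lower in KD ESCs (6.60 and 6.67 against 5.89 and 5.79, -0.80 ± 0.08), on a dim row whose mean signal lies at the 17.09th percentile of the genes tested. Cox4i2, Cox6b2, Cox8b and Cox8c did not pass in either comparison with WT, their differences lying between -0.05 and 0.28 at day 0. Other settings added calls. Cox6b2 passed at day 4 as deposited (0.229), after a median shift (0.344) and in the workbook (0.413), and at day 0 after a median shift (-0.357). At day 0 Cox8c passed as deposited (0.393) and in the workbook (0.299), and Cox8b as deposited (0.543). Ndufa4 was 0.22 ± 0.07 higher at day 0 and 0.32 ± 0.07 higher at day 4. The calls of Ndufa4 and Cox7a1 on both days and of Cox8a at day 4 were lost without single arrays of the groups compared (limma adjusted p up to 0.145, 0.115 and 0.123), and the day 0 difference of Ndufa4 was 0.0411 as deposited and -0.184 after a median shift. In the workbook Cox7a1 passed on neither day (-0.284 and 0.225) and Cox7b2 did not pass at day 0 (-0.407).

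Ndufa4l2 showed the largest changes of any member and a pattern of its own. It read 7.96 and 8.06 in WT ESCs, 7.93 and 8.20 in KD ESCs, 9.96 and 10.21 in WT EBs and 8.58 and 8.38 in KD EBs. It rose 4.23-fold over time in WT (2.08 ± 0.13 on the log2 scale, limma adjusted p = 8.31e-06) and was 3.04-fold lower in KD than in WT EBs (-1.61 ± 0.13, limma adjusted p = 0.000135), with no overlap, while the ESC groups overlapped. Within KD it rose by 0.42 ± 0.13 in the array table, whereas the workbook, a second table of the authors with 1 log2 value per Ensembl gene, gave -0.246. All 12 visceral endoderm markers were also lower in KD EBs: their summed linear signal was 47350 and 46340 in WT EBs, 13800 and 14220 in KD EBs and 1982 to 2708 in the 4 ESC arrays, and Afp and Ttr were lower by 2.78 and 1.76. Their part in the day 4 differences, Ndufa4l2 included, was not tested. The 7 ESC markers fell in both genotypes, from 66660 and 68500 to 28490 and 27780 in WT and from 69290 and 69630 to 32690 and 32750 in KD, and 4 of 7 were higher and 1 lower in KD EBs. Cox7a2l was lower in KD on both days, by 0.89 ± 0.07 and 0.29 ± 0.07, and rose over time in both genotypes. The row used lies at Gm6969, and the row at Cox7a2l itself gave -0.73 and -0.15. At day 4 it did not pass as deposited (-0.182), after a median shift (-0.0666) or in the workbook (-0.136, limma adjusted p = 0.413). Its day 4 call and its rise in WT were lost without single arrays (limma adjusted p up to 0.0996 and 0.071), as was the rise of Ndufa4l2 in KD without array 1 of either KD group (0.16).

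**Figure D4:**
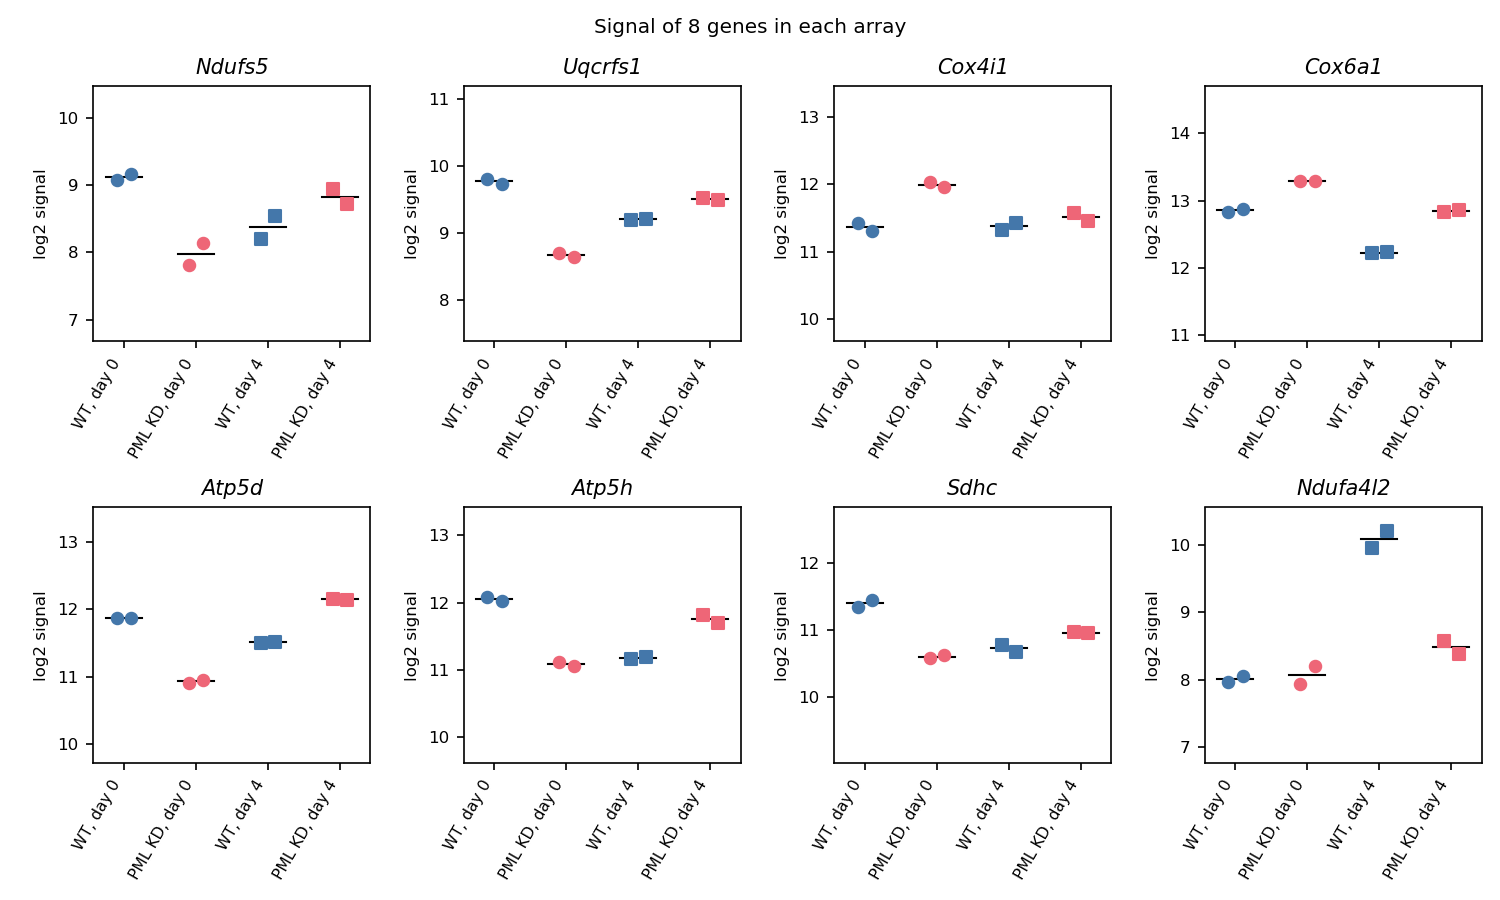
Log2 signal (vertical axis, the same span in each panel) of 8 members in each array, by group (horizontal axis; circles day 0, squares day 4, blue WT, red PML KD; bars are means of 2 arrays). Ndufs5, Uqcrfs1, Atp5d, Atp5h and Sdhc are lowest in KD ESCs, Cox4i1 and Cox6a1 are highest there after quantile normalization (Cox6a1 0.0305 apart at day 0 after a median shift), and Ndufa4l2 stands out in WT EBs at 9.96 and 10.21.

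Complex V consists of the catalytic F1 head, a ring of c subunits that turns in the membrane, a peripheral stalk and small membrane subunits. All 5 F1 genes were lower in KD ESCs, from -0.94 to -0.31. Atp5d, the delta subunit of the central stalk, read 11.87 and 11.87 in WT ESCs, 10.91 and 10.95 in KD ESCs, 11.50 and 11.52 in WT EBs and 12.16 and 12.14 in KD EBs. KD ESCs were lowest and KD EBs highest of the 4 groups with no overlap, with -0.94 ± 0.06 at day 0 (limma adjusted p = 2.45e-05) and 0.64 ± 0.06 at day 4 (limma adjusted p = 0.00034). Atp5c1, the gamma shaft that turns inside the head, gave -0.75 ± 0.07 and 0.53 ± 0.07. The catalytic beta subunit Atp5b was 13.82 and 13.86 in WT ESCs, 13.48 and 13.58 in KD ESCs, 13.06 and 13.07 in WT EBs and 13.32 and 13.34 in KD EBs, differences of -0.31 ± 0.07 and 0.26 ± 0.07. The alpha subunit Atp5a1 was lower in KD ESCs by 0.55 ± 0.06 and did not pass at day 4 (0.11 ± 0.06). The day 4 call of Atp5b was lost when any EB array was left out (limma adjusted p up to 0.105), and in the workbook it passed on neither day (-0.0733 and 0.154).

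All 4 peripheral stalk genes were lower in KD ESCs (-0.97 to -0.58), rose in KD over time and fell in WT. Of all genes 27.0% were lower in KD ESCs, 26.9% rose in KD and 26.2% fell in WT. Atp5h, subunit d, read 12.08 and 12.02 in WT ESCs, 11.11 and 11.06 in KD ESCs, 11.16 and 11.19 in WT EBs and 11.81 and 11.69 in KD EBs. KD ESCs and WT EBs were both far below WT ESCs, and KD was -0.97 ± 0.07 at day 0 (limma adjusted p = 3.79e-05) and 0.57 ± 0.07 at day 4 (limma adjusted p = 0.000997). Atp5pb, subunit b of the stalk, gave -0.82 ± 0.08 and 0.32 ± 0.08 on a row at Gm12231, and the row that the workbook names Atp5f1 gave -0.62 and 0.12. Of the 5 small membrane genes 3 were lower in KD ESCs, led by Atp5md (-0.85 ± 0.09), and Atp5md was higher in KD EBs (0.61 ± 0.09) while Atp5k was lower on both days (-0.24 ± 0.07 each). The same c subunit is encoded by 3 genes, and these did not move alike. Atp5g1 was lower in KD ESCs (12.50 and 12.54 against 12.18 and 12.12, -0.37 ± 0.07) and higher in KD EBs (11.27 and 11.29 against 12.20 and 12.28, 0.96 ± 0.07, the largest rise of any member at day 4). Atp5g2 was higher on both days (0.34 ± 0.07 and 0.59 ± 0.07), though its day 0 sign turned after a median shift, and Atp5g3 was lower at day 0 (-0.30 ± 0.07) with 0.19 ± 0.07 at day 4, which did not pass. The c subunit genes all fell in WT over time, Atp5g1 by 1.24 ± 0.07, and none passed in KD. Single arrays ended the calls of Atp5k on both days (limma adjusted p up to 0.161), Atp5pb at day 4 (0.116, without array 2 of the WT EBs or array 1 of the KD EBs), Atp5o over time in KD and WT (0.258 and 0.0717) and the fall of Atp5g2 in WT (0.135). As deposited Atp5k at day 4 (-0.188) and Atp5g2 at day 0 (0.19) did not pass, and in the workbook neither Atp5g3 at day 0 (-0.212) nor Atp5o over time in KD (0.169) did.

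Several symbols are represented by more than 1 row of the array, and a gene and its near-identical pseudogene copies may bind the same probes, so their signals are uncertain. The 89 genes have 114 rows, 17 genes have more than 1, and for 10 of them the brightest row, which was used, lies at another locus or at none in the authors' workbook. For most the rows moved together: the 6 rows of Atp5l gave -0.69 to -0.56 at day 0, and the 3 rows of Atp5h -1.07 to -0.94. Ndufb11, a complex I membrane subunit, had rows that disagreed at day 0. Its used row, at Gm6444, gave 0.07 at day 0, while the dimmer row at Ndufb11 itself gave -0.58. For Ndufa11, called lower at day 0, the used row, at Gm4943, gave -0.27 and the row at Ndufa11 gave -0.05. For Cox6c the used row, at Gm6265, gave -0.48 at day 0 and 0.57 at day 4, and the row at Cox6c gave -0.15 and 0.22. For Atp5g1 the used row, at Gm10039, gave 0.96 at day 4 and the row at Atp5g1 gave 0.91. Among the 72 genes with a single row 43 were lower and 6 higher in KD at day 0 (59.72% and 8.333%, against 27.0% and 16.9% of all genes).

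The Ndufaf genes, which build complex I and are no part of it, went with the complexes at day 0: 5 of 7 were lower in KD and none was higher (median -0.45). Ndufaf5, which modifies Ndufs7, read 8.36 and 8.34 in WT ESCs, 7.38 and 7.61 in KD ESCs, 6.75 and 7.01 in WT EBs and 7.25 and 7.25 in KD EBs, so the fall in WT over time (-1.47 ± 0.11) was the largest of any member. At day 4 it was 0.38 ± 0.11 higher in KD, and Ndufaf3 was 0.44 ± 0.07 higher. The call of Ndufaf5 at day 4 was lost when any of 5 arrays was left out (limma adjusted p up to 0.172), and on the values as deposited (0.263, 0.108). Of 37 other measured assembly factors of the complexes (41 listed), 17 were lower and 4 higher in KD at day 0 and 12 were higher and 3 lower at day 4. That is 45.9% and 10.8% at day 0, against 27.0% and 16.9% of all genes and 40.0% and 31.8% of the top 25% of signal, and 32.4% and 8.1% at day 4, against 17.3% and 10.1% and, in the top 25%, 28.4% and 19.1%. Bcs1l, which inserts the Rieske protein into complex III, was 9.51 and 9.63 in WT ESCs and 8.27 and 8.47 in KD ESCs (-1.20), and 8.41 and 8.58 against 9.27 and 9.19 in EBs (0.74). Cox17, a copper chaperone of complex IV, was -1.01 at day 0, and Cox18 was 0.72 higher at day 4.

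Genes that feed electrons to the complexes were read from lists of the pathway, which also hold kinases and phosphatases of pyruvate dehydrogenase (Pdk and Pdp genes). Of 23 measured genes of the tricarboxylic acid cycle and pyruvate dehydrogenase (24 listed) 15 were lower and 1 higher in KD at day 0 (median -0.49). At day 4, 13 were higher and 2 lower (median 0.29). The shares were 65.2% lower at day 0 and 56.5% higher at day 4, against 27.0% and 17.3% of all genes. In the top 25% of signal these were 40.0% and 28.4%. Idh3a, a subunit of the NAD-linked isocitrate dehydrogenase, read 11.44 and 11.42 in WT ESCs, 10.29 and 10.30 in KD ESCs, 10.66 and 10.63 in WT EBs and 11.06 and 11.03 in KD EBs, lower by 1.13 at day 0 and higher by 0.40 at day 4. Pdk1, a kinase that switches pyruvate dehydrogenase off, was the 1 gene higher at day 0 (0.33) and was lower at day 4 (-0.55). The other kinases of this family went differently. Pdk2 (-0.30) and Pdk4 (-1.17) were lower at day 0, and at day 4 Pdk4 was lower (-0.49) and Pdk3 higher (0.35). Of 26 electron carrier and coupling genes (30 listed) 10 were lower and 6 higher at day 0, and 8 were higher and 1 lower at day 4. The 38.5% lower and 23.1% higher at day 0 and the 30.8% higher at day 4 lie near the shares of the top 25% of signal (40.0%, 31.8% and 28.4%). Cytochrome c, Cycs, was lower in KD ESCs (11.80 and 11.67 against 10.89 and 10.88, -0.85) and higher in KD EBs (11.69 and 11.65 against 12.07 and 11.90, 0.31). The ubiquinone synthesis genes differed: Coq5 was lower at day 0 (-1.40) and Coq2 was higher (0.82).

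Regulators were mixed. Of 12 genes for nuclear regulators of respiratory genes 5 were lower and 1 higher in KD at day 0, and 1 was higher and 1 lower at day 4; the 41.7% lower at day 0 compare with 27.0% of all genes and 40.0% of the top 25% of signal. Myc, a factor that activates many genes of mitochondrial biogenesis, read 10.04 and 9.94 in WT ESCs, 7.85 and 8.15 in KD ESCs, 8.02 and 8.19 in WT EBs and 9.18 and 9.24 in KD EBs, which is -2.00 at day 0 and 1.11 at day 4. Its WT ESC arrays were highest and its KD EB arrays next, without overlap. Whether Myc bears on the members' values was not tested. Nrf1 was 0.25 higher in KD ESCs and Gabpa 0.33 lower. Of 19 measured genes for the upkeep and expression of mitochondrial DNA (25 listed) 8 were lower and 5 higher at day 0, and 6 were higher and 4 lower at day 4. The 42.1% lower and 26.3% higher at day 0 and the 31.6% higher at day 4 lie near the shares of the top 25% of signal. Tfam, which packages mitochondrial DNA and starts its transcription, was lower by 0.85 in KD ESCs, and the mitochondrial DNA polymerase Polg was higher by 0.52.

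The subunits encoded in mitochondrial DNA fall outside the symbol rule and were looked up after their values had been seen, in the authors' workbook of 1 log2 value per Ensembl gene, quantile normalized over 24408 genes. They differed in the direction opposite to the nuclear genes. Of the 13, 9 were higher and none was lower in KD at day 0 (median 0.31), where 21.0% of genes were higher and 21.2% lower, and 4 were lower and none higher at day 4 (median -0.20), where 11.5% were lower and 12.4% higher. Over time 8 rose in WT and none fell (24.0% and 27.3% of genes), and in KD 1 rose and 4 fell (25.4% and 27.0%). The difference of the changes was negative for 10 of 13 and positive for none (19.3% and 20.4%). From the same workbook, 42 of the 89 nuclear genes were lower and 8 higher at day 0, and 28 were higher and 3 lower at day 4. The complex I gene mt-Nd3 read 13.31 and 13.27 in WT ESCs, 13.86 and 13.88 in KD ESCs, 14.12 and 14.22 in WT EBs and 13.65 and 13.53 in KD EBs, with no overlap between neighbouring groups; KD was higher by 0.58 ± 0.08 at day 0 (limma adjusted p = 0.00249) and lower by 0.58 ± 0.08 at day 4 (limma adjusted p = 0.0051). The array table holds 2 of these genes, under the symbols ND3 and COX2: it gave mt-Nd3 0.56 and -0.52, and for mt-Co2 its 0.19 at day 0 and -0.10 at day 4 did not pass (limma adjusted p = 0.0761 and 0.383), nor did the difference of the changes (-0.30, 0.0613), whereas the workbook called mt-Co2 higher at day 0 (0.31) and lower in that difference (-0.49). The complex IV gene mt-Co3 was 0.53 ± 0.07 higher at day 0 and 0.31 ± 0.07 lower at day 4. Except for mt-Nd6, at the 88.25th percentile, these genes lie at the top of the signal range, mt-Nd3 lowest of them at the 99.17th percentile. On the workbook values as deposited 2 were higher and 1 lower at day 0 (median 0.10), and none higher and 3 lower at day 4 (median -0.08).

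**Figure D5:**
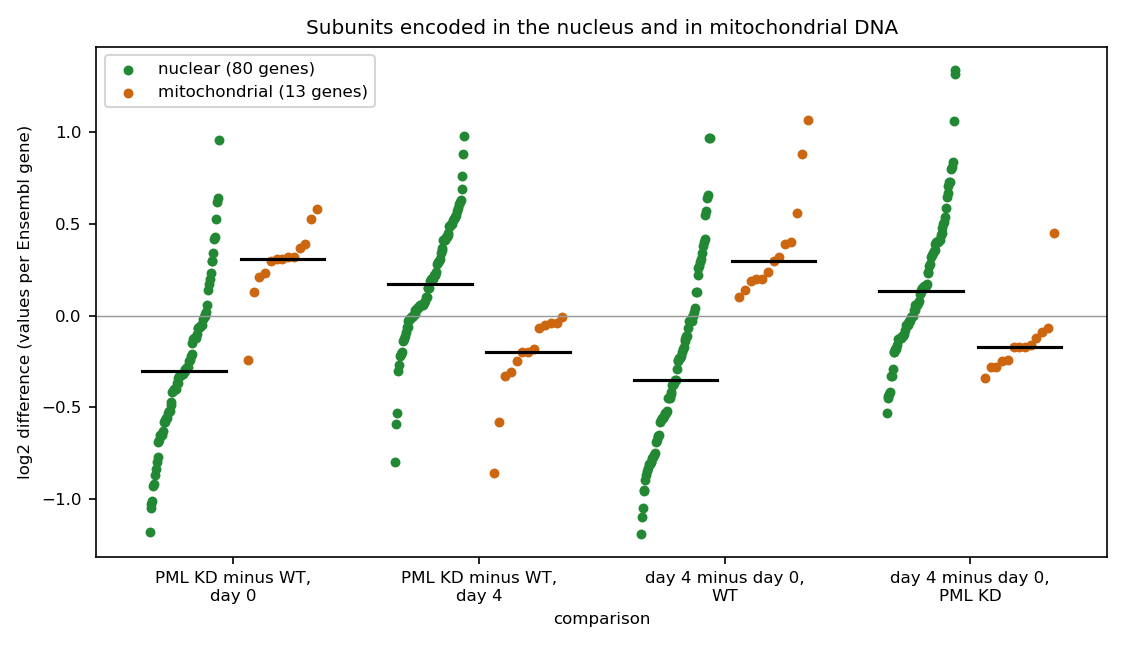
Log2 difference per gene (vertical axis) in 4 comparisons (horizontal axis) for 80 nuclear subunit genes (green) and 13 subunits encoded in mitochondrial DNA (orange), from the workbook after quantile normalization; bars are medians. The orange medians are 0.31, -0.20, 0.30 and -0.17, each on the other side of 0 from the green ones.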

How the data were processed

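RNA of 8 arrays in 4 groups was measured. The authors deposited a table of 1 linear intensity per probe set and array, 35556 probe sets in all. The submitters' processing notes name the Transcriptome Analysis Console; how background was corrected or arrays were scaled is not stated in the sources used here. The workbook holds log2 values that the authors computed per Ensembl gene, per the file headers; 4 columns of group means in it were not used. Median linear intensity was 169.4 to 199.1 per array, and the number of arrays limits the precision (SD of a member within a group 0.056 to 0.085 on the log2 scale).

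Intensity values were turned to log2, quantile normalized over all probe sets, and reduced to probe sets with 1 gene symbol in the platform table (21789; 1621 had several and 12146 were not listed) and to the brightest probe set per gene, 19938 genes. All 8 arrays were fitted together in limma 3.58.1 (R 4.3.3) with lmFit and eBayes for the means of the 4 groups, which leaves 4 residual degrees of freedom (Benjamini-Hochberg adjustment over all genes, threshold 0.05) for 5 contrasts. Errors after ± are standard errors from this fit. The fit was tested on simulated data. Replicate numbers did not pair the arrays: deviations of same-numbered arrays correlated from -0.072 to 0.054.

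Genes were named by rule: up to 4 largest called rises and falls per complex and contrast with arrays not overlapping, tissue-specific isoforms, core subunits, Pml, and up to 4 genes per pathway list with the smallest adjusted p. The text names a selection of these, with the genes of single roles and rows added after their values were seen. The members and lists were chosen with earlier results of these data known. Alternatives were the scaling, the table, the row of a gene, the dim filter, the replicate block, the samples fitted and each array left out. Chromosomes and promoters came from RefSeq (GRCm38.p6). Symbols that the platform table pairs with others on a probe set, such as Cox7c, are not analysed here. The lists of fibroblast, muscle and germ line markers are reported with the other observations.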

Additional observations from a re-analysis of the deposited data

Results flagged for a closer look

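The change from day 0 to day 4 differed between WT and PML KD by a test of the difference itself (limma, adjusted over all genes) for 57 of the 89 members. The 17 given here were picked from these after their values were seen. Values are the change in KD minus the change in WT on the log2 scale. The positive differences were led by Ndufs5 at 1.60 ± 0.21, Atp5d at 1.58 ± 0.09 and Atp5h at 1.54 ± 0.10, followed by Ndufb9 (1.48), Atp5md (1.45) and Uqcrfs1 (1.40). In all of these the WT change was negative and the KD change positive. The redox core of complex I gave 0.99 for Ndufv2, 0.89 for Ndufs8, 0.74 for Ndufv1, 0.58 for Ndufs1, 0.55 for Ndufs3 and 0.52 for Ndufs7. In the workbook the difference for Ndufs3 was 0.0323 and did not pass (limma adjusted p = 0.866).

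The negative differences were Ndufa4l2 (-1.66 ± 0.18), Ndufa13 (-0.72 ± 0.12), Cox6a2 (-0.58 ± 0.14), Cox4i1 (-0.49 ± 0.12) and Cox5b (-0.40 ± 0.09); the last 2 turned positive after a median shift. Ndufa13 and Cox4i1 lie on chromosome 8, whose genes stood 0.27 above the others in KD ESCs; its part in these differences was not tested. All the differences given here use the KD ESC arrays, in which Eif2s3y and Uty read far below the KD EB arrays, and the part of this was not tested either. With 2 arrays a group no array could be tested as an outlier.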

How the results depend on the processing

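Counts below are members called, of 89. At day 0 the higher count of 8 was 4 after a median shift. At day 4 the lower count of 6 was 3 as deposited and in the workbook and 2 after a median shift. Over time in WT the risen count of 10 was 4 as deposited and 1 after a median shift, and in KD the fallen count of 10 was 4 after a median shift. In the workbook 15 rose in WT and 9 fell in KD. When only the genes tested were quantile normalized, 12 rose in WT and 13 fell in KD. The difference of the changes gave 81 higher and 2 lower after a median shift, against 52 and 5. Leaving out each array in turn gave 7 to 8 higher and 41 to 55 lower at day 0, 23 to 39 higher and 2 to 5 lower at day 4, 4 to 10 risen and 41 to 51 fallen in WT, 25 to 40 risen and 8 to 10 fallen in KD, and 50 to 53 higher and 5 lower for the difference of the changes. A lone array left in a group was assumed to vary like the others. The replicate block gave 7 higher and 54 lower at day 0, 38 and 4 at day 4, 9 and 50 in WT, 38 and 9 in KD, and 51 and 5; since the numbers did not pair the arrays, it is given once. The scaling moved the median difference of all genes: for the difference of the changes it was 0.092, -0.107 as deposited and 0.2332 after a median shift. All-gene calls at day 0 were 3379 higher and 5379 lower, 5477 and 4955 as deposited, 2032 and 7414 after a median shift, and 4504 and 4397 when only the genes tested were quantile normalized. For day 4 (3456 and 2010) the last 2 settings gave 5028 and 1242, and 2799 and 2693. For the difference of the changes (5471 and 2933) the 3 settings gave 5034 and 5055, 8004 and 1547, and 4223 and 4254. Over time they gave 4849 and 5097, 2243 and 7513, and 4142 and 4563 in WT (3472 and 5226), and in KD (5367 and 3865) 4847 and 5033 as deposited and 4468 and 4987 with the genes tested alone.

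Over 164 named values, 2919 comparisons with an alternative were made. The sign turned in 59, of which 17 had a call on at least 1 side and 42 on neither; with the sign kept, 200 lost the call and 45 gained one. After a median shift the day 0 differences were -0.321 for Ndufb11, -0.269 for Ndufs7, -0.357 for Cox6b2, -0.349 for Cox8a and for the complex IV median, -0.184 for Ndufa4 and -0.0355 for Atp5g2, the changes in WT were -0.335 for Ndufv3, -0.0709 for Uqcr11, -0.0929 for Uqcrq and -0.103 for Cox7a2l, and the differences of the changes were 0.107 for Cox4i1 and 0.174 for Cox5b. As deposited the complex IV median at day 0 was -0.124. Ndufb11 at day 0 was -0.259 as the mean of its rows and -0.583 on its own row, an alternative chosen after seeing the data, like the set outside chromosome 8 and the workbook as deposited for the mitochondrial genes. In the workbook Ndufs3 at day 0 was 0.0629, Atp5k at day 4 was 0.0714, and over time in KD Ndufa4l2 was -0.246 and the medians of complexes II and IV were -0.116 and -0.0442. The causes were not tested. The filter on dim genes removed 1 member, Cox7b2.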

Other observations

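Markers of other cell types were read alongside the members. Of 8 fibroblast markers 2 were higher in KD at day 0 and 3 at day 4, with none lower, and their summed linear signal was 1230 and 1217 in WT ESCs, 1506 and 1333 in KD ESCs, 1563 and 1497 in WT EBs and 2489 and 2603 in KD EBs. Col1a2 was the one that differed most at day 4 (2.10). The 8 muscle markers summed to 1558 and 1426, 1343 and 1257, 1523 and 1497, and 2178 and 2042 in the same order, with 3 higher and none lower in KD at day 4 and 1 lower at day 0, Actc1 being higher by 0.83 and Acta1 by 0.91 in KD EBs. The 4 germ line markers summed to 965.4 and 1011, 426.8 and 517.2, 1586 and 1526, and 1211 and 988.8, with 4 lower in KD at day 0 and 2 at day 4. Of all genes 27.0% and 10.1% were lower on these days. Dazl, a germ cell RNA-binding protein, was 8.77 and 8.87 in WT ESCs and 7.24 and 7.21 in KD ESCs (-1.60). Their part in the members' values was not tested.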
